A study of Mus musculus with 12 samples.

Results

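Zinc finger genes named Zfp and a number were followed over 12 mouse arrays from a study of the knockdown of ZNF335, itself a zinc finger protein (Zfp335 in the mouse). A gene was taken when 1 of its probe sets carried a single platform symbol made of Zfp and digits only. Zfp335 was left out, each gene was represented by its probe set of highest mean signal, and that mean had to lie in the upper 60% of the probe sets that are not controls. Of 304 such genes on the array, 275 met the rule and 29 lay under the signal threshold. The members were thus chosen by symbol and by their mean signal over all 12 arrays, so a gene high at 1 time point could enter through it. In 8 members the mean at 5 days lay under the threshold and that at 1 day above, and in 7 the reverse.

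The cells came from C57BL/6 mice, and per the labels ZNF335 was lowered at embryonic day E14.5, while control cells received a control knockdown. 4 groups of 3 arrays were compared, namely knockdown and control cells 1 day after the knockdown (short term) and knockdown and control cells 5 days after it (long term). The design text names short hairpin RNA and sorting by fluorescence, whereas the titles name small interfering RNA. All samples carried stage E15.5 and postnatal day 0 as their harvest, so neither separates the time points. The description of the 6 long term samples gave the opposite group to their titles, and the titles were followed, so the direction of every long term knockdown difference rests on them. No cell type, promoter or culture is named in the labels, and the labels do not state whether replicate arrays stem from different animals or cultures, so p-values measure only the spread between these arrays.

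Most Zfp genes of the mouse encode proteins whose C2H2 zinc fingers bind DNA. Many of them also carry a KRAB domain, which recruits the corepressor Trim28 (KAP1) and through it the histone methyltransferase Setdb1 and heterochromatin proteins, and which is known for the silencing of transposable elements and the upkeep of imprints. KRAB zinc finger genes lie in clusters of tandem copies, so near-identical copies can share probes. The symbol alone groups unlike proteins, since Zfp36 (tristetraprolin) has CCCH fingers, binds AU-rich elements in messenger RNA and promotes their decay. A split of the members by KRAB domain or number of fingers was not made here.

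Values below are log2(value + 16) of the quantile-normalized deposited intensities, and every fold change is on that scale. The number of arrays, 3 per group, limits the precision. Signals of different probe sets do not rank transcripts. The brightest 10 probe sets of the members were those of Zfp462, Zfp664, Zfp266, Zfp251, Zfp91, Zfp106, Zfp292, Zfp263, Zfp329 and Zfp148. At the threshold of 6.51, the members just inside were Zfp341 at 6.52, Zfp169 at 6.59 and Zfp599 at 6.62. Just outside lay Zfp108 at 6.49, Zfp784 at 6.49 and Zfp850 at 6.46. Zfp42 (Rex1), a marker of pluripotent cells, had a mean of 5.11 and was no member. The probe sets comprised 241 of the plain type, 10 with the suffix a, 10 with the suffix s and 14 with the suffix x, and by the maker's convention the last 2 types can detect other transcripts as well.

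The short term arrays stood in 2 sets before any comparison of groups. Biotin-labelled hybridisation controls added to each sample had a mean of 11.97 to 12.20 (log2 of deposited values + 16) in knockdowns 2 and 3 and control 2, and of 9.58 to 10.84 in knockdown 1 and controls 1 and 3. Over the 275 members the arrays of the first, strong set correlated at 0.973 to 0.978 with each other, those of the weak set at 0.924 to 0.984, and arrays of different sets at 0.583 to 0.766, as a description over genes that share each array. The placing of control 3 depended on the scale. After quantile normalization its controls stood at 11.70, above the dividing value of 11, and it would then fall into the strong set. The sets hold 2 knockdowns and 1 control against 1 knockdown and 2 controls, so they are unequal between the groups.

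The sets were drawn in this way because it matched the array correlations, so the separation of the members along them is a description, and it does not hold with control 3 in the strong set. The members' median per array was 8.03 in knockdown 2, 8.13 in knockdown 3 and 8.27 in control 2, and it was 8.66 in knockdown 1, 8.64 in control 1 and 8.76 in control 3. All 3 strong arrays thus lay under all 3 weak ones. The median strong minus weak difference of the members was -0.65 against -0.26 over all 27022 kept probe sets, and 199 of 275 members (72.4%) were lower in the strong set against 59.7% of all. In 171 members (62.2%, against 46.4% of all probe sets) every strong array lay under every weak one, and in 51 (18.5% against 28.8%) every strong array lay above.

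The spread between the sets was wide for single genes. Zfp82 stood at 5.56, 5.85 and 5.96 in the strong set and at 8.40, 8.30 and 8.27 in the weak set. Zfp715 stood at 5.67, 5.81 and 6.12 against 8.52, 8.32 and 8.05. Zfp82 and Zfp715 were the members lowest in the strong set relative to the weak one, at -2.54 and -2.43. Zfp972 went the other way, with 10.94, 10.88 and 10.63 in the strong set and 6.87, 7.03 and 7.87 in the weak set, a difference of 3.56. Zfp980 and Zfp957 were also higher in the strong set, by 3.45 and 3.30. The split was therefore not a shift of all members in 1 direction.

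Medians of marker lists for other cell types also differed between the sets. The 11 measured of 12 microglial markers had a median strong minus weak difference of -2.99, the 12 measured of 13 endothelial and pericyte markers of -1.45, and the 11 neuronal markers of -0.55. In the endothelial and pericyte list Kdr (2.52), Rgs5 (1.21), Pecam1 (1.02) and Eng (0.03) went the other way. So did Fcer1g (0.19) of the microglial list and Nefl (1.63) of the neuronal list. The mean level of the microglial markers at 1 day ran from 5.58 to 7.72 with the knockdown, against 5.71 to 8.37 without it, and at 5 days from 7.73 to 11.12, against 8.02 to 10.32. The endothelial markers ran over the 4 groups from 6.53 to 7.66, 6.63 to 7.89, 7.06 to 10.73 and 7.20 to 10.08, in the same order. The part of these cells in the results on Zfp genes was not tested. In such bulk samples, fewer cells of a type and less RNA per cell cannot be told apart. Apical progenitor markers, 9 of 9 measured, ran from 10.36 to 11.05 over the 12 arrays, while 0 of 5 erythroid markers were measured. Neuronal markers ran from 9.35 to 10.52. Intermediate progenitor markers, 7 of 7 measured, ran from 10.56 to 10.95 at 1 day and from 9.37 to 9.98 at 5 days. Of them 3 passed lower at 5 days in controls and 3 in knockdowns (1.25% and 1.93% of all probe sets did). Of 6 meningeal and fibroblast markers 5 were measured, with means of 6.59 to 8.80. At 1 day the means were 8.19 to 8.27 in the strong arrays against 6.59 to 6.96 in the weak ones. The median strong minus weak difference of this list was 0.43. Dcn (3.51) and Col1a2 (3.00) had the largest differences, with Ogn at 0.43 and Col1a1 at 0.33. Col3a1 (-0.21) went the other way. Ogn of this list passed higher at 5 days in controls and in knockdowns. The apical marker Slc1a3 passed higher in knockdowns. Of all probe sets 2.02% passed higher in controls and 4.05% in knockdowns. No microglial, endothelial, pericyte or neuronal marker passed between the times.

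**Figure D1:**
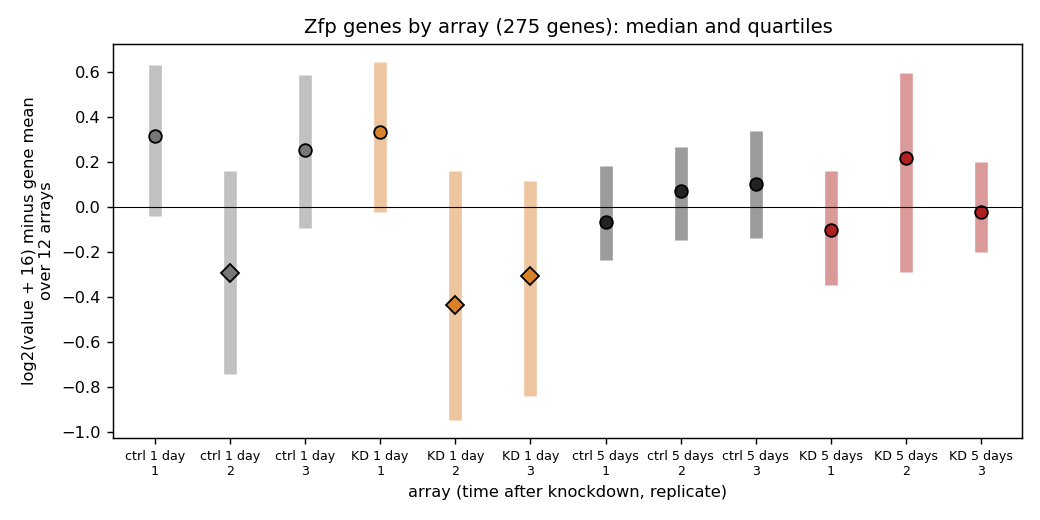
The plot of Zfp genes by array shows, for each of the 12 arrays on the horizontal axis, the median (point) and quartiles (bar) over the 275 members of log2(value + 16) minus each gene's mean over the arrays. Diamonds mark the 3 short term arrays with strong hybridisation controls, whose medians lie below those of the other 9 arrays.

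Zfp335 itself gives the check of the labels. Its kept probe set had deposited signals at 1 day of 136.2, 53.65 and 40.95 with the knockdown, against 139.03, 46.07 and 127.24 without it. At 5 days they were 102.83, 34.34 and 151.36 with it, against 109.26, 150.35 and 179.28 without it. At 1 day the signals lay at 40.95 to 53.65 in the 3 strong arrays and at 127.24 to 139.03 in the 3 weak ones, and within each set knockdown and control overlapped. The part of the unequal sets in the difference was not tested. Knockdown and control overlapped at both times, with differences of -0.64 (SE 0.73) at each. The adjusted p was 0.917 at 1 day and 1 at 5 days, from a separate limma fit with its own Benjamini-Hochberg adjustment. In the fit of the 27022 kept probe sets 0 passed an adjusted p of 0.05 at either time.

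The first comparison asks which Zfp genes differed 1 day after the knockdown. All 3 short term knockdowns were run on station 7 and all 3 short term controls on station 8. Knockdown and station therefore cannot be told apart at 1 day. No member passed the threshold of an adjusted p of 0.05 in limma and 0% of all kept probe sets did, and the smallest adjusted p among members was 0.832. At an unadjusted p under 0.05 the count was 0 of 275 members and 120 (0.444%) of all. The fitted differences ran from -1.06 (Zfp687) to 1.05 (Zfp972), with a median of -0.24 against -0.10 over all probe sets. They were below 0 in 193 of 275 members (70.2%), against 58.7% of all. With probe sets averaged per gene the shares were closer, at 70.9% of members against 67.1% of all genes. The medians were then -0.21 and -0.16.

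The 1 day median of the members differed with how the hybridisation control sets were handled, and 1 arm within each set holds a single array. Within the strong set, knockdowns 2 and 3 against control 2, the member median was -0.086 (-0.039 over all probe sets). Of 275 members 170 were below 0 (61.8%, against 56% of all). Within the weak set, knockdown 1 against controls 1 and 3, the member median was 0.039 (-0.002 over all). There 119 were below 0 (43.3% against 50.4%). With the set as a block in the fit the member median was -0.025, against -0.027 over all probe sets. Then 156 members were below 0 (56.7% against 56.1%). With sets drawn on the normalized scale the block balanced over the groups by construction and the median stayed at -0.24. Leaving out knockdown 2 moved it to -0.085 and leaving out knockdown 1 moved it to -0.50. Leaving out control 2 gave -0.45, and leaving out knockdown 3, control 1 or control 3 gave -0.12, -0.11 or -0.13.

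Knockdown and control arrays did not overlap in 2 members, both higher in the knockdown (0.727%, against 0.736% of all probe sets), and in 0 members lower (against 0.933%). Zfp661 stood at 7.90, 8.04 and 7.87 with the knockdown, against 7.74, 7.64 and 7.70 in the controls, a difference of 0.24 (SE 0.18, adjusted p = 0.832). Zfp664 stood at 11.68, 11.84 and 11.73 against 11.58, 11.68 and 11.48, a difference of 0.17 (SE 0.19, adjusted p = 0.832). Neither passed the threshold, and the 95% intervals ran from -0.15 to 0.64 for Zfp661 and from -0.24 to 0.58 for Zfp664.

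After 5 days the members lay evenly around 0. The 3 long term knockdowns and control 1 were run on station 4, and controls 2 and 3 on station 5 and another scanner. No member passed the threshold in limma and 0% of all probe sets did, and every adjusted p was 1. At an unadjusted p under 0.05 there was 1 member, Zfp626, and 34 probe sets (0.126%) in all. Differences ran from -0.93 (Zfp626) to 0.90 (Zfp957), with 143 above 0 and 132 below (48% against 51% of all), and the median was 0.016 against -0.006 over all probe sets. The 0.90 of Zfp957 rests on knockdown 2, at 9.59 against 6.67 and 6.68 in the other knockdowns and 6.60 to 7.01 in the controls. The median SE of a member was 0.39, as at 1 day, because 1 spread per probe set was estimated from all 4 groups. That estimate includes the spread between the strong and weak sets at 1 day. The SEs and p-values thus do not measure the 5 day arrays alone. With the 2 long term groups fitted alone, 0 members and 0% of all probe sets passed as well. Without long term knockdown 2 the member median was -0.096 with 204 members below 0 (74.2%, against 55.8% of all probe sets). Without knockdown 1 it was 0.095 with 108 below 0 (39.3% against 48.2%). Without control 1 it was -0.012 with 150 below 0 (54.5% against 53.8%). Knockdown 2 had a 3' to 5' signal ratio of 8.76 for the Actb control probe sets, against 1.51 to 1.93 in the other 5 long term arrays, and the part of that ratio in these values was not tested.

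Groups did not overlap at 5 days in 7 members higher in the knockdown (2.55% against 1.32% of all probe sets) and in 10 lower (3.64% against 1.69%). Those higher were Zfp568, Zfp91, Zfp830, Zfp449, Zfp560, Zfp236 and Zfp384, with differences of 0.12 to 0.41. Those lower were Zfp626, Zfp58, Zfp873, Zfp940, Zfp120, Zfp512, Zfp267, Zfp623, Zfp930 and Zfp532, with differences of -0.11 to -0.93. All 17 had an adjusted p of 1.

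Zfp626 had the lowest fitted difference of the members. It stood at 6.76, 6.21 and 6.28 with the knockdown, against 7.30 to 7.38 in the controls, whose values were 7.34, 7.38 and 7.30. The difference was -0.93 (SE 0.36, unadjusted p = 0.0285). On the scanner shared by the 3 knockdowns and control 1 it was also -0.93. A second, dimmer probe set of Zfp626 moved the other way, by 0.87, and the mean of the probe sets gave -0.029, so the direction for the gene depends on the probe set. At 1 day the 2 groups overlapped in Zfp626, with a difference of 0.24.

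Zfp58 stood at 7.15, 5.66 and 7.01 in the long term knockdowns, against 7.25, 7.37 and 7.66 in the controls. Knockdown 2 was far below the other 5 arrays. The difference was -0.82 (SE 0.43, unadjusted p = 0.0852), and it was -0.34 without knockdown 2. Zfp568, a KRAB protein that in the mouse represses a placental Igf2 transcript, stood at 8.43, 8.19 and 7.91 with the knockdown, against 7.90, 7.62 and 7.79 in the controls, a difference of 0.41 (SE 0.26). The lowest knockdown lay just above the highest control. Zfp91, an E3 ubiquitin ligase, stood at 11.08, 11.37 and 11.25 against 11.06, 11.02 and 10.95, a difference of 0.22 (SE 0.18). All 4 of its probe sets were above 0, between 0.12 and 0.22, at 5 days.

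**Figure D2:**
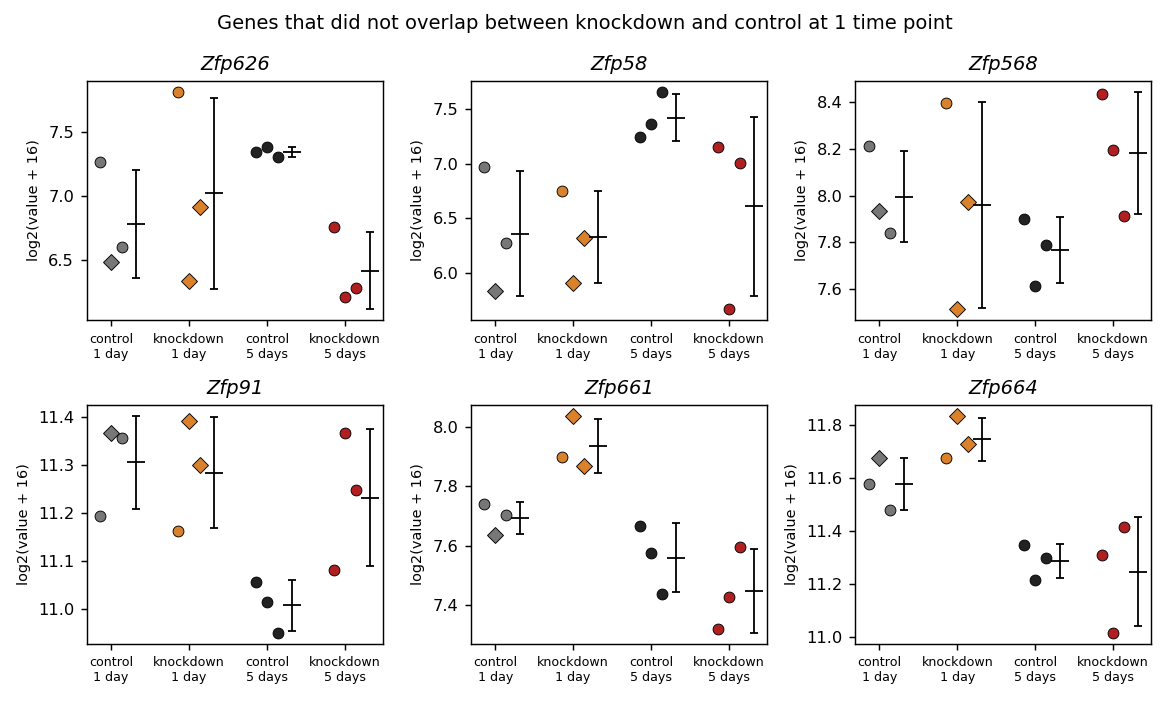
The plots of single genes show log2(value + 16) on the vertical axis in every array of the 4 groups, for 6 members whose knockdown and control arrays did not overlap at 1 time point. Points are arrays (diamonds for the 3 strong hybridisation control arrays), and the black bar is the mean ± SD of 3 arrays. In Zfp626 the 3 long term controls lie between 7.30 and 7.38, above all 3 knockdowns.

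**Figure D3:**
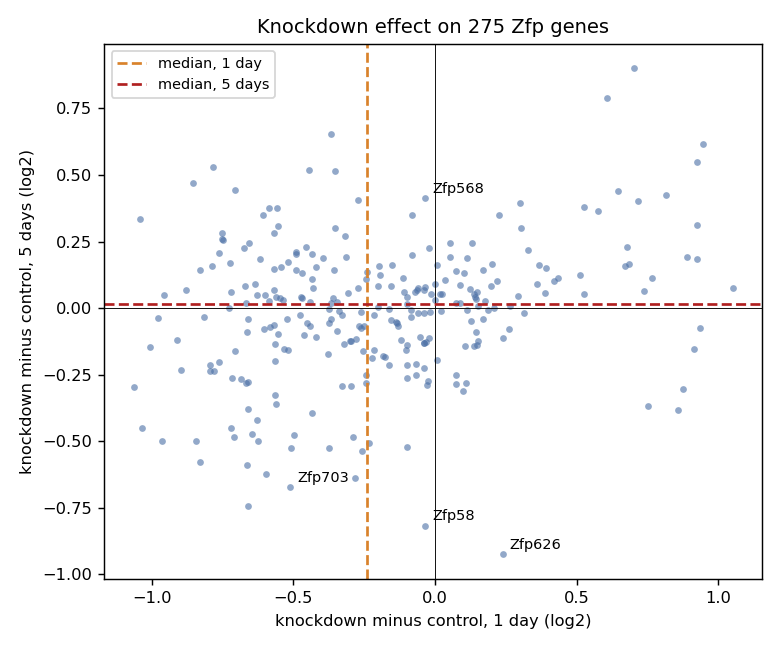
The plot of knockdown effects sets the log2 difference at 1 day (horizontal) against that at 5 days (vertical) for 275 Zfp genes, with dashed lines at the medians of -0.24 and 0.016. The points spread more along the 1 day axis, and no gene passed the threshold on either.

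The difference between the 2 knockdown effects tests whether they changed with time. No member passed (0% of all probe sets, every adjusted p = 1, limma), with an unadjusted p under 0.05 in 1 member and in 55 (0.204%) of all probe sets. The long minus short difference had a median of 0.16 against 0.04 over all, and lay below 0 in 96 of 275 (34.9% against 46.3%). With 1 array left out the median ran from 0.054 (without short term knockdown 2) to 0.38 (without short term knockdown 1). It was 0.003 with the set as a block, with 135 members below 0 (49.1%, against 49% of all). Without the 3 strong arrays it was -0.054, with 155 below 0 (56.4% against 53%). Averaging probe sets per gene gave a median of 0.11 against 0.10 over all genes, with 37.1% below 0 against 39.1%. The smallest unadjusted p among the members higher at 5 days belonged to Zfp318 at 0.69 (SE 0.39), Zfp560 at 1.03 (SE 0.64) and Zfp449 at 0.96 (SE 0.60). Among those lower it belonged to Zfp626 at -1.16 (SE 0.51), Zfp788 at -1.18 (SE 0.60) and Zfp950 at -1.07 (SE 0.67). Zfp318, Zfp560 and Zfp449 were lower, and Zfp788 and Zfp950 higher, in all 3 short term strong arrays than in every weak one. Zfp560 stood at 7.38, 7.56 and 8.01 in the strong set against 9.02 to 9.25 in the weak set. In Zfp626 the sets overlapped. Of the members, 166 (60.4%) had the same sign in both knockdown contrasts, against 61.5% of all probe sets, and these contrasts share no arrays.

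The time points were compared separately in controls and in knockdowns, which share no arrays. Each time point was run on chip lots and stations of its own, so time, lot and station cannot be told apart. In the controls 5 members passed the threshold in limma (1.82%, against 3.28% of all probe sets), 1 higher (2.02% of all probe sets were) and 4 lower (1.25%) at 5 days. In the knockdowns 9 passed (3.27% against 5.98%), 4 higher (4.05% of all) and 5 lower (1.93%). Zfp266, Zfp407 and Zfp712 passed in both, among 11 that passed in either. The median long minus short difference was -0.08 in controls (0.003 over all probe sets) and 0.10 in knockdowns (0.06 over all). Differences lay below 0 in 163 members in controls (59.3%, against 49.8% of all) and in 119 in knockdowns (43.3% against 47.4%). These medians depended on single arrays and on the sets. In controls the median ran from -0.25 (without short term control 2) to 0.023 (without short term control 1), and in knockdowns from 0.002 (without short term knockdown 2) to 0.38 (without short term knockdown 1). With the set as a block the median was -0.25 in controls (195 members below 0, 70.9% against 51.1% of all probe sets). In knockdowns it was then -0.23 (179 below 0, 65.1% against 49.5%). Without the 3 strong arrays it was -0.25 in controls (189 below 0, 68.7% against 51.2%). In knockdowns it was then -0.29 (188 below 0, 68.4% against 51.1%). Averaging probe sets per gene gave medians of -0.08 in controls (0.06 over all genes) and 0.09 in knockdowns (0.17 over all genes). The shares below 0 were then 57.8% against 45.6% in controls and 44.4% against 40.5% in knockdowns. An unadjusted p under 0.05 was reached by 35 members in controls (17.2% of all probe sets did) and by 52 in knockdowns (25.1%). The time points did not overlap in 30 members higher (10.9% against 17.1%) and 40 lower (12.7% of all) in controls. In knockdowns they did not overlap in 23 higher (8.36% against 13.7%) and 25 lower (9.09% against 9.43%). Whether members passed more or less often than all probe sets turned with the scaling. Without normalization the shares were 57.8% of members against 48.6% of all in controls and 58.2% against 50.1% in knockdowns, and with median scaling 36.7% against 34.5% and 43.3% against 38.5%.

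Zfp712 had the smallest adjusted p of the members in both. In the controls it stood at 8.18, 7.87 and 8.28 at 1 day and at 5.78, 6.19 and 5.95 at 5 days. In the knockdowns it stood at 8.39, 7.35 and 7.81 at 1 day and at 5.78, 5.67 and 4.85 at 5 days. All 6 short term arrays lay above all 6 long term ones, strong and weak set alike. All 6 long term values lay under the threshold of 6.51, with deposited signals of 9.46 to 45.89, so Zfp712 was a member through the short term arrays and the size of its fall depends on the added 16. Zfp712 fell by 2.14 (SE 0.33, adjusted p = 0.00695, limma) in the controls and by 2.42 (SE 0.33, adjusted p = 0.00298) in the knockdowns. The alternatives gave -2.45 to -1.55 in controls and -2.99 to -1.60 in knockdowns. It kept an adjusted p under 0.05 with each array of the compared groups left out in turn, and also without the 3 strong arrays. In the knockdowns the call ended with the scanner as a block (adjusted p = 0.616) and with those 2 groups fitted alone (adjusted p = 0.0865). Its probe set has the suffix x, so a near-identical copy could share the signal.

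Zfp407 fell in both comparisons as well. In the controls it stood at 9.54, 8.63 and 9.42 at 1 day and at 6.94, 7.48 and 7.70 at 5 days, a difference of -1.83 (SE 0.31, adjusted p = 0.0134). In the knockdowns it stood at 9.27, 8.65 and 8.50 at 1 day and at 7.58, 7.59 and 7.51 at 5 days, a difference of -1.24 (SE 0.31, adjusted p = 0.0466). The time points did not overlap in either. Of the fits that left out 1 array, the control call held in 3 of 6, those without control 1 or 2 at 1 day or control 3 at 5 days, and the knockdown call in 1 of 6, that without knockdown 1 at 1 day, with differences of -2.11 to -1.61 and of -1.40 to -1.01.

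Zfp266 rose in both. It stood at 10.90, 10.83 and 11.02 in the short term controls, against 11.72, 11.80 and 11.71 in the long term controls, a difference of 0.83 (SE 0.19, adjusted p = 0.0483). In the knockdowns it stood at 10.87, 10.84 and 10.79 at 1 day and at 11.451, 12.003 and 11.759 at 5 days, a difference of 0.91 (SE 0.19, adjusted p = 0.0276). All 6 short term arrays lay between 10.79 and 11.02, strong and weak set alike. Its other 3 probe sets gave -0.21, -0.52 and 1.21 in the controls, so the direction depended on the probe set, and the mean over the 4 did not pass (0.33 in controls, 0.32 in knockdowns). The control call ended in each of the 6 fits without 1 array, and the knockdown call in 4 of 6, holding without short term knockdown 1 and without long term knockdown 1.

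Zfp36, the mRNA decay factor introduced above, had the largest rise among the members that passed. In the knockdowns it stood at 7.740, 5.721 and 5.596 at 1 day and at 11.30, 9.99 and 9.52 at 5 days. In the controls it stood at 8.31, 5.84 and 7.26 at 1 day and at 10.91, 8.93 and 9.38 at 5 days. Every long term array lay above every short term array, and within 1 day the 3 strong arrays were the lowest. The rise was 3.92 (SE 0.81, adjusted p = 0.0244) in knockdowns, and in controls the difference was 2.60 (SE 0.81), which did not pass (adjusted p = 0.121). Without the 3 strong arrays the knockdown difference was 2.53 and did not pass (adjusted p = 0.243). Of the 6 fits that left out 1 array, that without knockdown 1 at 1 day kept the call. Between the same times the fitted differences of all 11 microglial markers were above 0 (medians of 1.52 in controls and 2.93 in knockdowns), as were those of all 12 endothelial and pericyte markers (1.40 and 2.24), none past the threshold. Their part in the rise of Zfp36 was not tested.

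Zfp972 and Zfp109 had the largest falls in the knockdowns, and both were high in the strong arrays. Zfp972 stood at 6.87, 10.94 and 10.88 in the knockdowns at 1 day and at 5.14, 4.82 and 4.73 at 5 days, a difference of -4.66 (SE 1.10, adjusted p = 0.0372). Zfp109 stood at 7.014, 9.995 and 9.324 at 1 day and at 5.780, 5.596 and 5.221 at 5 days, a difference of -3.25 (SE 0.77, adjusted p = 0.0377). All these 5 day values lay under 6.51, so both genes were members through the short term arrays. Deposited 5 day signals of the 2 groups were 4.17 to 15.76 for Zfp972, under the added 16, and 16.04 to 55.97 for Zfp109. The sizes depend on that addend, at -5.62 for Zfp972 with 1 added and -3.47 with 64 added (adjusted p = 0.0541, not past the threshold), and at -3.75 and -2.42 for Zfp109. In both genes knockdown 1, of the weak set, lay between the other short term arrays and the long term ones. In the controls the differences were -3.69 for Zfp972 and -2.003 for Zfp109, and neither passed. Leaving out 1 array at a time kept the knockdown call of Zfp972, and that of Zfp109, in 1 of 6 fits, that without knockdown 1 at 1 day.

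The other members that passed in 1 comparison had smaller differences. In the knockdowns Zfp704 rose by 1.88 (SE 0.47, adjusted p = 0.0439), from 9.62, 8.36 and 8.09 to 10.06, 10.84 and 10.79. Its second probe set gave 0.48. Zfp398 gave 1.38 (SE 0.36, adjusted p = 0.0494), but its other 4 kept probe sets ranged from -1.28 to 0.21 and their mean with it was -0.02. Zfp113 fell by 0.90 (SE 0.23, adjusted p = 0.0461), from 8.45, 8.47 and 9.12 to 7.77, 7.84 and 7.74. In the controls Zfp553 fell by 1.04 (SE 0.24, adjusted p = 0.0461) and Zfp35 by 0.99 (SE 0.23, adjusted p = 0.0482). Zfp553 and Zfp35 changed sign without quantile normalization, to 0.24 and 0.46, and with median scaling, to 0.09 and 0.30. Without normalization the all-probe-set median itself moved to 0.86 in controls, so relative to it both genes stayed lower. Of the fits without 1 array, 0 of 6 kept the call of Zfp553, and 1 of 6 kept that of Zfp35, the fit without short term control 2. For Zfp704, Zfp398 and Zfp113 the call was kept in 1 of 6 each, without short term knockdown 1.

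**Figure D4:**
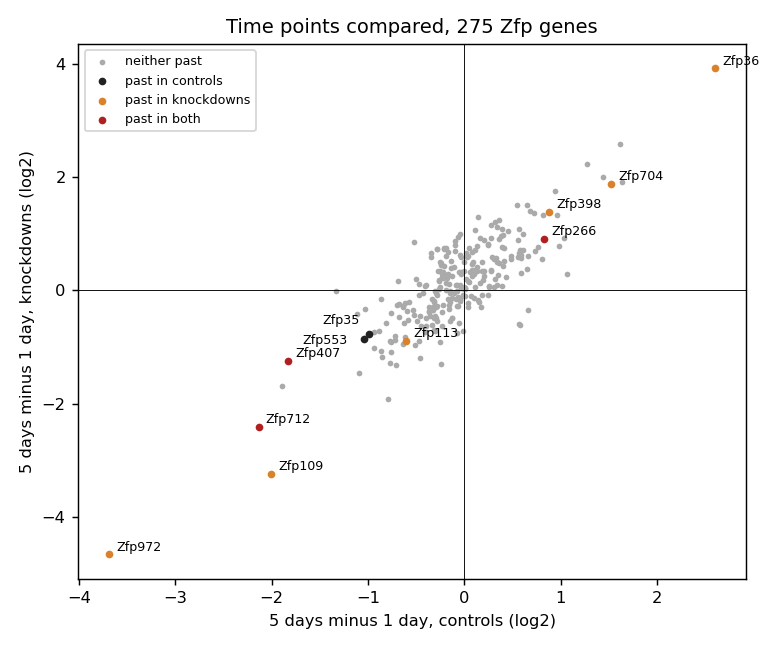
The plot of time differences sets 5 days minus 1 day in controls (horizontal) against the same in knockdowns (vertical), in log2, for 275 Zfp genes, with colours for the 11 that passed the threshold. Zfp36 lies at the upper right and Zfp712, Zfp109 and Zfp972 at the lower left, and 205 of 275 members have the same sign on both axes.

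**Figure D5:**
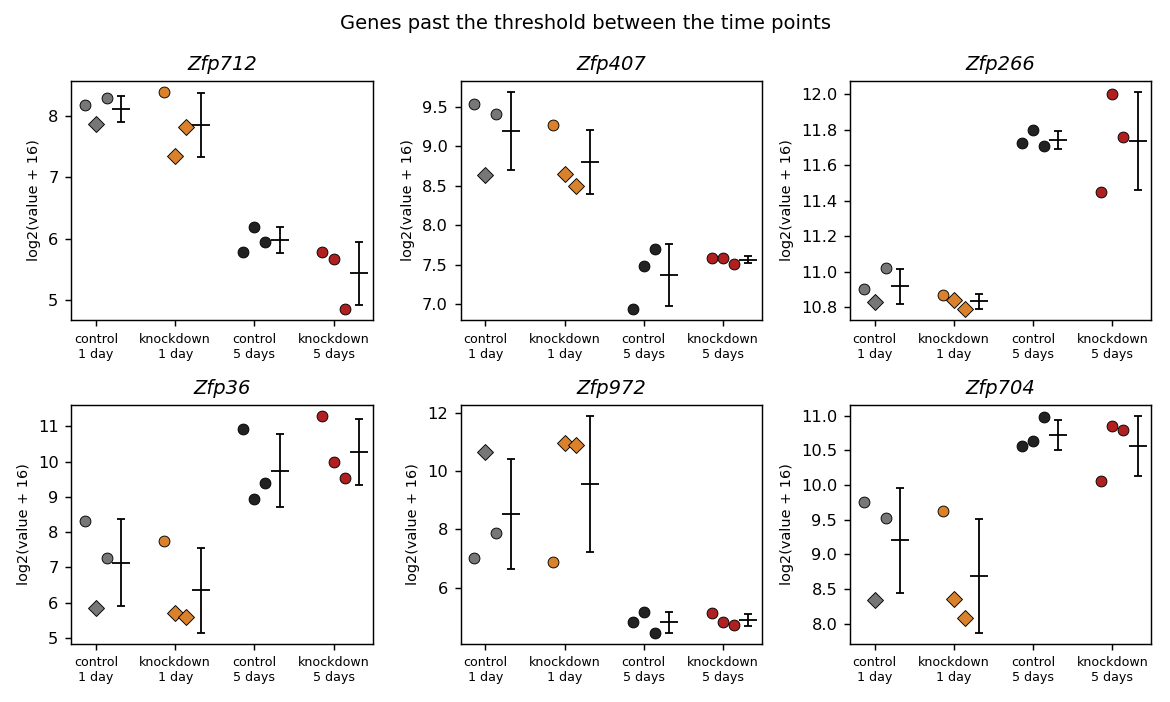
The plots of single genes over time show log2(value + 16) on the vertical axis in each array of the 4 groups for 6 members that passed in at least 1 time comparison. Points are arrays (diamonds for the 3 strong arrays) and black bars are mean ± SD of 3 arrays. In Zfp712 all long term arrays lie below all short term arrays, and in Zfp972 the short term arrays spread from 6.87 to 10.94.

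Of the members, 205 (74.5%) had the same sign in both time comparisons, against 81.9% of all probe sets. As a description over genes, which are not independent, the 2 sets of differences correlated at 0.83 over the members.

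Genes whose roles are stated in the literature gave 33 members out of 38 listed. At 1 day 12 of the 33 were above 0 and 21 below, with a median of -0.08, and at 5 days 19 were above and 14 below, with a median of 0.05. None of the 33 passed in either knockdown comparison, as none of all probe sets did. Zfp57, a KRAB protein that keeps imprints through early development, stood at 11.46, 9.94 and 10.13 with the knockdown at 1 day, against 11.82, 10.21 and 10.26 without it. At 5 days it stood at 10.61, 10.79 and 11.23, against 10.996, 11.053 and 11.049. Its groups overlapped at both times, with differences of -0.26 (SE 0.49) and -0.16 (SE 0.49). Zfp445, which acts with Zfp57 at imprinted regions, differed by -0.06 (SE 0.29) and 0.07 (SE 0.29).

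Some of these members have roles in neural cells. Zfp536, a repressor of neuronal differentiation, stood at 8.72, 6.63 and 6.76 in the short term knockdowns, against 8.67, 7.20 and 8.80 in the controls, a difference of -0.85 (SE 0.75), the lowest of the 33 at 1 day. The 3 strong arrays were its lowest at 1 day. Zfp521 and Zfp423, related regulators of progenitor cells, differed by -0.52 (SE 0.41) and -0.14 (SE 0.23) at 1 day and by 0.17 and -0.06 at 5 days. Zfp711, whose human counterpart is linked to intellectual disability, stood at 9.52, 7.08 and 7.20 in the short term knockdowns, against 9.59, 10.69 and 10.19 at 5 days. That time difference was 2.22 (SE 0.63) and did not pass (adjusted p = 0.0657), and in the controls it was 1.27 (SE 0.63).

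Zfp703, a transcriptional corepressor, had the lowest difference of the 33 at 5 days, -0.67 (SE 0.51). It stood at 10.15, 8.43 and 10.09 with the knockdown, against 10.13, 10.17 and 10.39 in the controls, so knockdown 2 alone lay apart. Zfp809, which in the mouse binds the primer binding site of retroviruses and silences them, differed by -0.38 (SE 0.38) at 1 day and -0.17 (SE 0.38) at 5 days. Zfp462, whose loss in human patients is tied to a neurodevelopmental syndrome, differed by 0.13 (SE 0.25) and -0.05 (SE 0.25), and all 12 of its values lay between 11.74 and 12.52.

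The cofactors through which KRAB proteins act were measured beside the members, as a list chosen with earlier results known. Of 34 cofactor genes 31 were measured, and 0 passed in either knockdown comparison (11 higher and 20 lower at 1 day, 13 higher and 18 lower at 5 days, with medians of -0.11 and -0.04 against -0.10 and -0.006 over all probe sets). Trim28 stood at 11.35, 11.07 and 11.13 in the short term knockdowns, against 11.41, 11.20 and 11.57 in the controls, with a difference of -0.21 (SE 0.25). At 5 days its difference was -0.05 (SE 0.25). Setdb1 differed by -0.50 (SE 0.47) and -0.37 (SE 0.47).

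Between the time points 3 of the 31 cofactors passed lower at 5 days in each of controls and knockdowns (1.25% and 1.93% of all probe sets did), and 0 and 1 passed higher (2.02% and 4.05%). Daxx, a histone H3.3 chaperone, fell by 1.62 (adjusted p = 0.006, limma) and 1.23 (adjusted p = 0.0189). The deacetylase Hdac1 fell by 1.07 (adjusted p = 0.0182) and 0.91 (adjusted p = 0.0283), with 10.56 to 10.86 in all 6 short term arrays and 9.51 to 10.01 in all 6 long term ones. Cbx3, heterochromatin protein HP1 gamma, fell by 2.74 (adjusted p = 0.00693) and 2.77 (adjusted p = 0.00583) on its chosen probe set. All 6 long term values of Cbx3 lay between 5.01 and 6.02, under the signal threshold. The probe set was thus kept through the short term arrays, at 7.59 to 9.14. Morc3 rose in the knockdowns alone past the threshold, by 1.07 (adjusted p = 0.0413), and its difference in the controls was 0.97 (adjusted p = 0.0775). The difference between these was not tested for this gene. With each array left out in turn Cbx3 kept both calls. Daxx kept its control call in 6 of 6 and its knockdown call in 2 of 6, without short term knockdown 1 or long term knockdown 2. Hdac1 kept its control call without short term control 2 and its knockdown call without short term knockdown 1 or long term knockdown 2, and Morc3 kept its call without short term knockdown 1. With the scanner as a block none of the 4 passed in knockdowns (adjusted p of 0.609 for Cbx3 and 0.723 for the others). Hdac1 reversed without normalization between arrays, to 0.455 and 0.537.

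Zfp genes are known for tandem clusters, and 274 members could be placed among the genes of RefSeq GRCm38.p6. Chromosome 7 held 69 of them, chromosome 17 held 38 and chromosome 8 held 22. Of the 274, 140 lay next to another Zfp gene and 134 did not. At 1 day the median differences of these classes were -0.26 and -0.19, at 5 days 0.018 and 0.006, and between times -0.13 and -0.05 in controls and 0.093 and 0.097 in knockdowns. The difference between the classes was not tested. In 21 runs of at least 3 neighbouring members, with 92 members and up to 12 in a run, every member was below 0 in 7 runs at 1 day and above 0 in 1 run, and at 5 days in 4 runs each. Probe sets that cross-detect neighbours cannot be told apart from genes that move together.

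Different probe sets of a gene often disagreed. In 108 members with several kept probe sets, all had the same sign in 48 at 1 day, 42 at 5 days, 66 between times in controls and 60 in knockdowns. The genes outside the members whose profile was most like the mean member profile over 12 arrays (Pearson r) were Dnaaf1 at 0.981, Cep78 at 0.978 and Fastkd3 at 0.978. Their strong minus weak differences were -2.09, -1.43 and -0.99. Of the 275 members, 72 correlated with the mean profile above 0.8 and 74 below 0.

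Promoters, taken from RefSeq GRCm38.p6 as 250 bases before to 50 after the first listed start, were matched for 227 members. 3 are shown because their genes passed a time comparison, Zfp36 with the largest rise, Zfp266 with a rise in both and Zfp712 with a fall in both. Capitals mark GGGCGG (a GC box), CCAAT, TGACGTCA (a cAMP response element) and the CArG box on either strand.
Zfp36, chr7:28379179-28379478, minus strand: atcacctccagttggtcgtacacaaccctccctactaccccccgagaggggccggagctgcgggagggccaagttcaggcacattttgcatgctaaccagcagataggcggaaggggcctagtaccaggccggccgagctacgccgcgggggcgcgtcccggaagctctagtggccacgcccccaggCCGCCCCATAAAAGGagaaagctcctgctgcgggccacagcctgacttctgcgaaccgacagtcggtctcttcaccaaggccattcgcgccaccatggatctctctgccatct
Zfp266, chr9:20521370-20521669, minus strand: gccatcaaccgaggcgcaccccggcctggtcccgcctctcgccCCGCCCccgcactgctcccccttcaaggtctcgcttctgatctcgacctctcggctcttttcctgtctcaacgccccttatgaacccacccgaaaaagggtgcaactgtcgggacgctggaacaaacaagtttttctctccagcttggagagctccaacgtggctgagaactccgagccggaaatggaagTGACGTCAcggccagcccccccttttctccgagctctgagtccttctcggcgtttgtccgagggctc
Zfp712, chr13:67061121-67061420, minus strand: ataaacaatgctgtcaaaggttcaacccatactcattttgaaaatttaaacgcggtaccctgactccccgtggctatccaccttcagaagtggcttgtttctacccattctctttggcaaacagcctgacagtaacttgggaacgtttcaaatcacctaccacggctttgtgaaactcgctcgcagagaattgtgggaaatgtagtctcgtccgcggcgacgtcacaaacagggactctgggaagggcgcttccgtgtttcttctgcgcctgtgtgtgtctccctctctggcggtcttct
In Zfp36 a GC box and a CArG box, the site bound by serum response factor, overlap by 1 base close to the start. Zfp266 holds 1 GC box and 1 TGACGTCA, and Zfp712 holds none of the 4 motifs. These 3 windows hold 21, 23 and 16 CG dinucleotides.

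Over all 227 promoters a GC box on either strand was found in 48.5%, against 64% of 9899 promoters of genes with a kept probe set and 35.9% of all 27018. CCAAT was found in 47.6%, against 38.9% and 37.9%, and TATAAA in 6.61%, against 7.38% and 14.2%. TGACGTCA was found in 1.76% (3.29% and 1.88%) and the CArG box in 2.2% (1.31% and 1.57%). CANNTG was found in 71.8% (62.7% and 72.2%). The median number of CG dinucleotides was 15 in members, 21 in genes with a kept probe set and 7 in all. A match is a description of letters and was not set against binding.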

How the data were processed

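RNA of 12 samples was labelled with biotin for Affymetrix 3' arrays, per the labels' protocols. The authors deposited a linear intensity for each of 45101 probe sets in every array. How probes were summarised and scaled is not stated in the labels used here. The deposited instrument files hold lot, station and scanner and no expression. Intensities were quantile normalized, 16 was added and log2 taken. Apart from 64 control probe sets, which were dropped, those with a mean in the upper 60% (27022) were kept. limma 3.58.1 in R 4.3.3 fitted 4 group means to all 12 arrays (8 residual degrees of freedom), with Benjamini-Hochberg adjustment over all kept probe sets and a threshold of 0.05. Array signal, not read depth, sets the precision.

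Members and lists were chosen with earlier results of these data known. Genes were named by rule: past the threshold or, in knockdown comparisons, without overlap of groups; for the difference of effects, by smallest unadjusted p; the brightest; those at the signal threshold; those with known roles; and the profiles most like the members' mean. Zfp687, Zfp957 and the genes set apart by the hybridisation controls were named after their values were seen. The control sets were defined on deposited values after 2 other definitions had been looked at, because that choice matched the array correlations; the other placing of control 3 is an alternative.

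On simulated data for the long term comparison (27022 probe sets, 200 changed), 6% of 2-fold and 38% of 4-fold changes were recovered with 2 false calls in all. The simulated noise was normal and independent between probe sets and arrays, with the spread of the fit to all 4 groups. The real arrays shared deviations over many probe sets, so these rates need not hold for them. Symbols came from the platform annotation, and promoters and neighbours from RefSeq. Alternatives covered scaling, pseudocount, filter, probe sets, weights, samples, scanner, control set, replicate block and each array left out.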

Additional observations from a re-analysis of the deposited data

How the results depend on the processing

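The knockdown comparisons at 1 day and 5 days and their difference gave 0 Zfp genes past the threshold under all alternatives run except array weights. Replicate block (0 calls in each) and arrays left out (0 to 0) were included. With array weights 225 passed at 1 day (81.8%, against 77.8% of all probe sets). For the difference 111 passed with array weights (40.4% against 39.6%). The weight estimation stopped before it converged. Counts between time points did not hold. For controls (5) and knockdowns (9) they were 159 and 160 without normalization (48.6% and 50.1% of all probe sets passed). With median scaling they were 101 and 119 (34.5% and 38.5% of all). Array weights gave 170 and 120 (61.8% and 43.6% of members, against 62.8% and 49.7% of all). The counts were 1 and 0 with the compared groups alone (1.41% and 0.54% of all). With the scanner as a block they were 1 and 0 (1.03% and 0.163%). With the hybridisation control set as a block they were 35 and 21 (12.7% and 7.64% of members, against 12.8% and 7.39% of all). They ran from 1 to 3 in controls and from 1 to 60 in knockdowns with 1 array left out. The 60 came without short term knockdown 1 (21.8% of members, against 28.6% of all). With pseudocount 1 the controls gave 3 (3.02% of all) and with probe sets averaged per gene 3 (4.31% of all genes). With the upper 40% kept the knockdowns gave 14 (6.83% of members, against 10.8% of all). Alternatives chosen after seeing the data gave 8 and 1 without the 3 strong arrays (4.43% and 0.803% of all). They gave 4 in knockdowns with control sets from normalized values (2.28% of all). The split of higher against lower calls turned from 1 and 4 in controls and 4 and 5 in knockdowns to 154 and 5 and 155 and 5 without normalization, to 96 and 5 and 115 and 4 with median scaling, and to 4 and 31 and 3 and 18 with the set block. The median of all probe sets then shifted by 0.86 and 0.85 without normalization and 0.71 with median scaling, and that of the members by 0.87 and 0.97, and 0.72 and 0.83. In the controls Zfp553 reversed to 0.24 without normalization and 0.090 with median scaling and Zfp35 to 0.46 and 0.30, and in the knockdowns Zfp398 reversed to -0.021 with probe sets averaged. Zfp712 passed in 18 of 18 alternatives in controls and 16 of 18 in knockdowns, and Zfp36 in 9 of 19 in knockdowns (2.16 to 5.36). Of the cofactors, read out after seeing the data, Hdac1 reversed in controls and knockdowns to 0.455 and 0.537 without normalization and to 0.299 and 0.392 with median scaling, and Daxx to 0.021 in knockdowns without normalization. The causes were not tested. The correlations of deviations of same-numbered knockdown and control arrays were 0.92, 0.90 and -0.42 at 1 day and -0.13, -0.016 and 0.096 at 5 days. At 1 day replicates 1 and 2 each lay within 1 hybridisation control set and replicate 3 across the sets. Knockdown 3 correlated at 0.87 with control 2, of its own set. These values do not settle whether replicate numbers pair the arrays. Time comparisons could not be fitted with the block, which lies within time.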
